A study of Homo sapiens with 6 samples.

Results

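CA9 and 8 other genes that handle acid, bicarbonate and lactate at the cell surface were followed across 6 RNA sequencing libraries. They are the carbonic anhydrase genes CA2, CA9, CA12 and CA13, the lactate transporter genes SLC16A1 and SLC16A3, the gene of their partner protein BSG, and the bicarbonate transporter genes SLC4A2 and SLC4A7. The 9 genes were chosen by name, with earlier results of these data known. Their current symbols were matched to the Ensembl identifiers of a table of 20263 genes. Of the 9, 7 had enough counts to be tested among 13543 genes. The study measured total RNA of human prostate cancer cells that the labels call LNCaP, a hormone-dependent line. Of the 6 libraries, 3 were made from cells with the empty vector control and 3 from cells with LINC01518 overexpression, a long non-coding RNA delivered on a vector. The design text names a different insert, MEG3, and group names follow the sample labels. LINC01518 and MEG3 were not analysed here, so the insert was not checked. Not given in the sources used here are the promoter, dose and time of the vector. It is also not said whether libraries of 1 group are separate cultures, and p-values may therefore reflect technical spread alone.

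Carbonic anhydrases interconvert carbon dioxide with bicarbonate and a proton. CA9 and CA12 sit in the plasma membrane with the active site outside the cell, and CA2 and CA13 work in the cytosol. Cells that ferment glucose export lactate together with a proton through the monocarboxylate transporters MCT1 (SLC16A1) and MCT4 (SLC16A3), which need the glycoprotein basigin (BSG) to reach the membrane. Bicarbonate moves through the anion exchanger AE2 (SLC4A2), which trades chloride for bicarbonate, and the sodium-bicarbonate cotransporter NBCn1 (SLC4A7). CA9 and SLC16A3 are textbook targets of the hypoxia-inducible factors (HIF), which bind a short DNA core next to the genes they induce.

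Libraries held 38161544 to 42553688 counts. Where a library had 0 counts for a gene, up to 3 counts remain possible, or 0.0705 to 0.0786 CPM (counts scaled to library size), for counting error only. The label LNCaP was checked against 14 markers of that line and of luminal prostate cells, of which 6 (KLK2, KLK3, KLK4, TMPRSS2, FOLH1 and TRPM8) had 0 counts in all 6 libraries. The luminal keratin gene KRT18 had 995 ± 76.3 CPM (SD, n = 3) with empty vector. These 6 secreted and membrane markers were thus not detected, and the cells are referred to by their label only.

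Sequences just before a RefSeq transcript start are shown for 3 of the genes, CA9, SLC16A3 and the other membrane anhydrase gene, CA12. They are RefSeq windows of 250 bases on the strand of the gene, build GRCh38.p14, from chr9:35673678-35673927 (plus strand) for CA9, chr15:63381847-63382096 (minus strand) for CA12 and chr17:82228792-82229041 (plus strand) for SLC16A3. Capitals mark the HIF core, searched as ACGTG and GCGTG on both strands, so that CACGT and CACGC are the same cores on the opposite strand.
CA9: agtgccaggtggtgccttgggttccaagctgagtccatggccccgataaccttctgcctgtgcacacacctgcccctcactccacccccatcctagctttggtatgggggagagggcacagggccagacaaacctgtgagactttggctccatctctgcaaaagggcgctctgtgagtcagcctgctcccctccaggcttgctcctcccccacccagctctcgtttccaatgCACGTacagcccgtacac
CA12: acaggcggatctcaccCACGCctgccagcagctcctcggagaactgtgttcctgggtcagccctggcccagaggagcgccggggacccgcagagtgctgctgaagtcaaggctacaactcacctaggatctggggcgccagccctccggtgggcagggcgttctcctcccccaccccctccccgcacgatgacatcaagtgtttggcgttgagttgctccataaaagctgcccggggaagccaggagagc
SLC16A3: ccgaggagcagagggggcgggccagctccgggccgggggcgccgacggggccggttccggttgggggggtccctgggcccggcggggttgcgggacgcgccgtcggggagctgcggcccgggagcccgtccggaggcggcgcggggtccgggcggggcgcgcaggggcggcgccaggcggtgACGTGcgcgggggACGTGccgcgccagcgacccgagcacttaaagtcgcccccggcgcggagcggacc
The single core of CA9 lay on the opposite strand 18 to 14 bases before the start. SLC16A3 had 5 RefSeq starts, and the window shown, its second, was chosen because it holds ACGTG, at 68 to 64 and at 55 to 51 bases before the start on the strand of the gene. CA12 had no ACGTG in its window, and its GCGTG lay 234 to 230 bases before the start. All distances are from RefSeq starts, and the GENCODE bounds of these 3 genes, given below, begin further upstream. The CA12 and SLC16A3 windows shown and the core of CA9 lie inside those bounds. RefSeq windows were read for 6 of the 9 genes. None was read for CA2, CA13 and SLC16A1, so the HIF core before their starts was not examined. Of all 35116 RefSeq windows of this length, 18.5% held ACGTG and 32.2% held GCGTG on either strand, and 43.2% held at least 1 of them, so a match is common and describes the letters only. BSG held 6 matches before the second of its 2 starts and SLC4A2 held 7 before the last of its 4 starts, where each CACGTG, which reads the same on both strands, counts as 2.

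**Figure D1:**
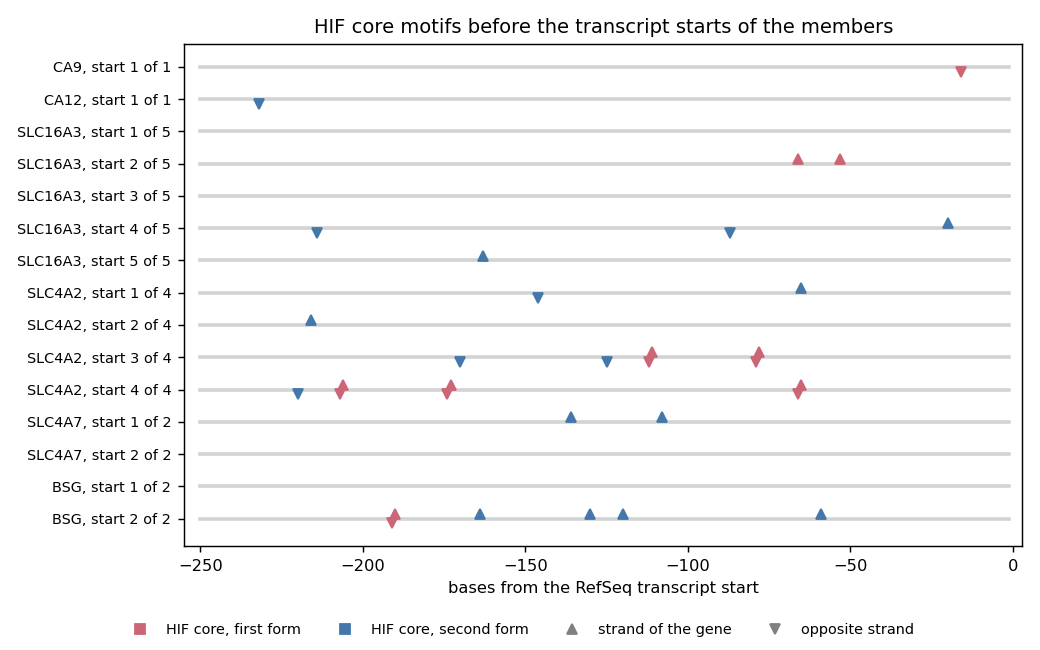
Positions of the HIF core in the 250 bases before each RefSeq transcript start of CA9, CA12, SLC16A3, SLC4A2, SLC4A7 and BSG. The horizontal axis is the distance in bases from the start, each line is 1 start, red marks ACGTG and blue GCGTG, and the triangle gives the strand. The core of CA9, 18 to 14 bases before the start, lies nearest to a start among the ACGTG matches.

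Levels were compared between genes on the deposited TPM, which are corrected for transcript length. BSG was by far the most abundant of the genes, at 2234 ± 54.9 TPM (SD, n = 3) with empty vector, rank 53 of the 20263 genes. SLC16A3 followed at 246 ± 10.7 TPM and SLC16A1 at 113 ± 5.38 TPM. SLC4A2 stood at 96.2 ± 0.175 TPM, below SLC16A1 in every empty vector library, but the 2 genes overlapped with overexpression, where SLC4A2 spread from 78.3 to 105.7 TPM and SLC16A1 from 93.1 to 97.3 TPM. CA9 had 28.2 ± 1.24 TPM, above SLC4A7 at 13.2 ± 1.59 TPM and CA12 at 11.9 ± 0.351 TPM. SLC4A7 and CA12 could not be separated beyond their spread with empty vector (12.07 to 15.03 against 11.5 to 12.08 TPM), and with overexpression CA12 lay above SLC4A7 in each library. CA9 had the higher level of the 2 membrane anhydrase genes, with 2.27 to 2.45 times the TPM of CA12 in the empty vector libraries. The cytosolic anhydrase genes were at the bottom. CA2, the widespread cytosolic form, had 0 counts in all 6 libraries, and CA13 had 8, 8 and 2 counts with empty vector and 2, 0 and 2 with overexpression, so that changes in both were not detectable at this depth.

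**Figure D2:**
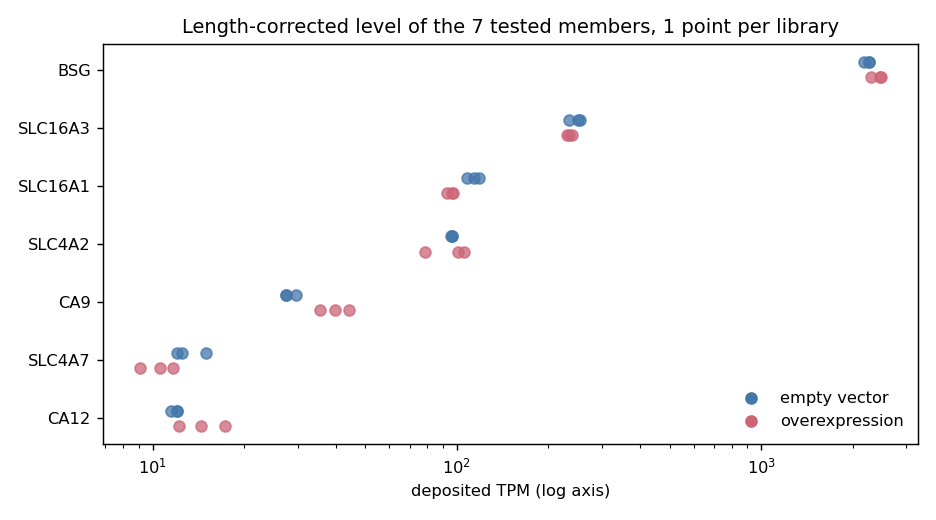
Deposited TPM of the 7 tested genes on a log axis, 1 point per library, blue for empty vector and red for overexpression. BSG lies near 2234 TPM and CA12 near 11.9 TPM in the empty vector libraries, and the CA9 points of the groups do not overlap.

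The comparison of overexpression with empty vector asked which of these genes changed when the vector with the insert was given. CA9 was the only one of the 7 tested genes that rose by edgeR's quasi-likelihood test at an adjusted p under 0.05, and 0 fell, against 5.6% of all 13543 genes called in either direction, 3.57% higher and 2.03% lower. At an unadjusted p under 0.05 there were 3 higher and 2 lower, where 23.6% of all genes tested passed, while DESeq2 called 1 higher (CA9) and 1 lower (SLC16A1). The groups did not overlap in CPM for 5 of the 7, 3 higher and 2 lower, which is to be read against 31.4% of all genes tested. These shares only describe the 7, since the genes were chosen with earlier results of these data known. The median log2 fold change was 0.15 over the 7 genes and -0.0035 over all genes tested. In bulk samples such as these, fewer cells that express a gene and less RNA per cell cannot be told apart.

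CA9 (ENSG00000107159, chromosome 9, 35673856 to 35681159, plus strand, GRCh38) had 21.7, 23.9 and 22.8 CPM in the empty vector libraries and 33.5, 36.5 and 29.8 CPM in the overexpression libraries. Every overexpression library lay above every empty vector library, with the third replicate the lowest of its group. The mean went from 22.8 ± 1.11 to 33.2 ± 3.35 CPM (SD, n = 3 each), a 1.46-fold rise. On the log2 scale the change was 0.54, with an SE of 0.088 and an edgeR adjusted p = 0.0163. These values rest on 885 to 1435 counts per library, for which counting alone gives a coefficient of variation of 2.98%, against 4.87% between the empty vector libraries and 10.1% between the overexpression libraries. The rise was ranked 120 of the 484 genes called higher, and 837 of the 13543 genes tested had a change of at least this size in either direction. The call depended on the libraries included. The edgeR adjusted p was 0.0509 without empty vector replicate 1, 0.0618 without overexpression replicate 1 and 0.0522 without overexpression replicate 2, and 0.024 to 0.047 without any of the others, at log2 fold changes of 0.47 to 0.62. On the deposited TPM, limma-trend gave a log2 fold change of 0.48 on the log2(TPM + 1) scale and an adjusted p = 0.053. CA9 shares 643 of its 1670 exonic bases (GENCODE 29, all transcripts) with ARHGEF39, a gene on the opposite strand, and no strand setting of the counting is given, so reads there cannot be assigned to either gene with certainty. ARHGEF39 had 480 to 581 counts per library and a change of 0.14 on the log2 scale (SE 0.074, edgeR adjusted p = 0.286).

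**Figure D3:**
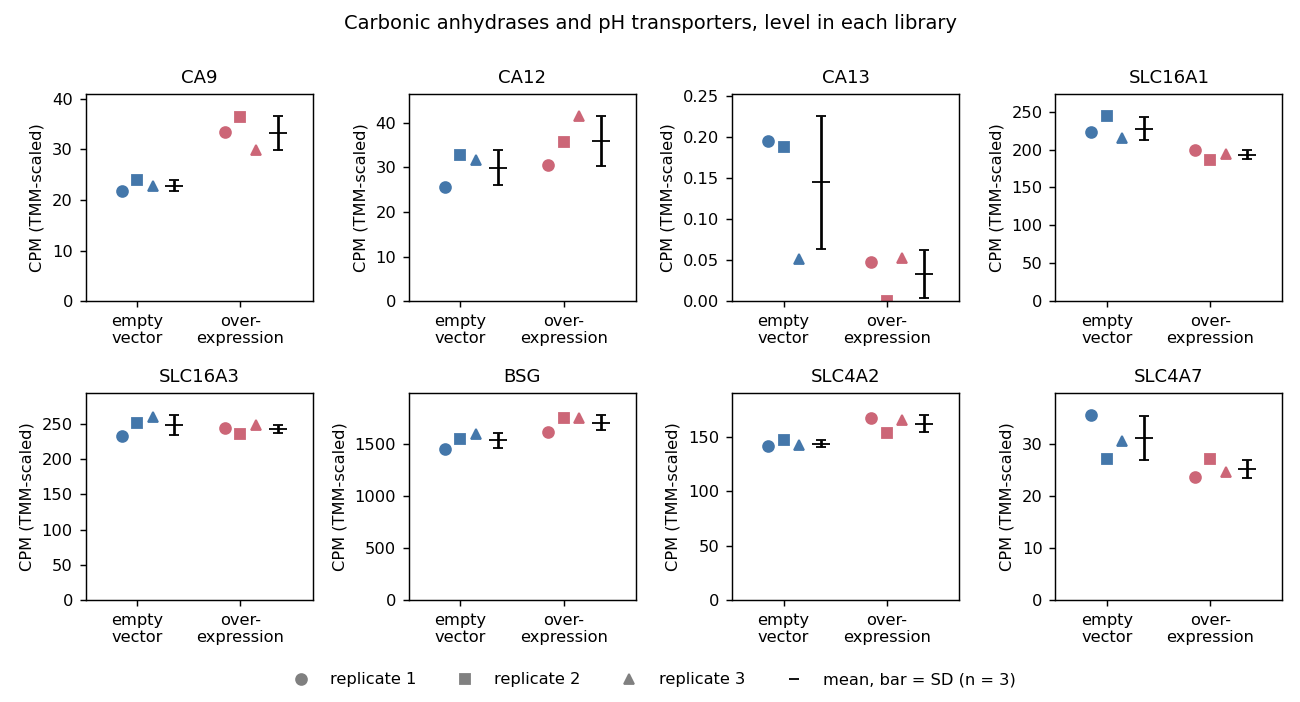
CPM of 8 of the genes in each library, scaled by TMM, with a linear axis from 0, points by replicate number and bars for mean and SD (n = 3). CA9 lies at 21.7 to 23.9 CPM with empty vector and 29.8 to 36.5 CPM with overexpression, whereas the CA12 and SLC16A3 groups overlap; CA2, at 0 in all libraries, is not drawn.

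CA12, the other membrane anhydrase gene (chromosome 15, 63321378 to 63382161, minus strand), had 25.6, 32.7 and 31.6 CPM with empty vector and 30.4, 35.6 and 41.5 CPM with overexpression. Its groups overlapped, since the first overexpression replicate lay below the second and the third empty vector replicates. The log2 fold change was 0.26 (SE 0.136, edgeR adjusted p = 0.300), and the spread between libraries, 12.8% with empty vector and 15.4% with overexpression as a coefficient of variation, was far above the counting error of 2.75%. Without overexpression replicate 3 the log2 fold change of CA12 was 0.14, and without empty vector replicate 1 it was 0.16. The TPM ratio of CA9 to CA12 was 2.39, 2.45 and 2.27 with empty vector and 3.26, 3.05 and 2.05 with overexpression. The third overexpression replicate, which had the least CA9 and the most CA12 of its group, had the lowest ratio of all 6 libraries. An exact permutation test of this ratio, 2-sided, gave p = 0.4. CA13 (chromosome 8, 85220587 to 85284073) did not pass the count filter, and with no filter edgeR gave an unadjusted p = 0.0756 and an adjusted p = 0.304.

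Among the lactate transporters, SLC16A1 and SLC16A3 gave different values. SLC16A1 (MCT1; chromosome 1, 112911847 to 112957013, minus strand) had 223.5, 244 and 215 CPM with empty vector and 199, 187 and 195 CPM with overexpression. All overexpression libraries lay below all empty vector libraries. The log2 fold change was -0.24 (SE 0.057), at an edgeR adjusted p = 0.0534 that missed the threshold. SLC16A1 passed with DESeq2 (adjusted p = 0.0134), with scaling by library size alone (edgeR adjusted p = 0.0394) and with no count filter (0.0489), and gave an adjusted p = 0.069 with limma-trend on TPM. Without 1 library its edgeR adjusted p was 0.051 to 0.153.

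SLC16A3 (MCT4; chromosome 17, 82228397 to 82261129, plus strand) had 232, 251 and 260.1 CPM with empty vector and 243.5, 236 and 248 CPM with overexpression. The overexpression values lay within the range of the empty vector values. The log2 fold change was -0.03 (SE 0.053, edgeR adjusted p = 0.742), and it was -0.080 without empty vector replicate 1, 0.0021 without empty vector replicate 3 and -0.014 without overexpression replicate 2. This gene shares 482 of its 8995 exonic bases with the opposite-strand gene CSNK1D, at 3386 to 3808 counts per library with a log2 fold change of 0.11 (edgeR adjusted p = 0.298). In TPM, the ratio of SLC16A3 to SLC16A1 was 2.05, 2.12 and 2.35 with empty vector and 2.39, 2.47 and 2.48 with overexpression. The groups lay apart, narrowly at the third empty vector and the first overexpression replicate.

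BSG (basigin; chromosome 19, 571277 to 583493, plus strand) had 1459, 1552 and 1601 CPM with empty vector and 1622, 1749.7 and 1749 CPM with overexpression. The lowest overexpression library lay just above the highest empty vector library. The log2 fold change was 0.15 (SE 0.054, edgeR adjusted p = 0.144), on 59766 to 68850 counts per library. Counting error was 0.392% at this depth, against 4.71% and 4.30% between the libraries of the groups, so depth did not limit the precision of BSG. The TPM of BSG over the sum of SLC16A1 and SLC16A3, the transporters it carries, was 6.24, 6.13 and 6.28 with empty vector and 6.96, 7.69 and 7.30 with overexpression. The exact permutation test, 2-sided, gave p = 0.1 for this ratio and for that of SLC16A3 to SLC16A1, which is the smallest p that 3 libraries against 3 allow, and p = 0.2 for each after adjustment over the 4 ratios computed. The ratios were chosen after the values of the genes had been seen.

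Of the bicarbonate transporter genes, SLC4A2 (AE2; chromosome 7, 151057210 to 151076527, plus strand) had 141, 147 and 142 CPM with empty vector and 168, 153 and 165 CPM with overexpression. The CPM of the groups lay apart, and the change was 0.18 on the log2 scale (SE 0.050, edgeR adjusted p = 0.084). The deposited TPM of SLC4A2 did not follow the CPM. They were 95.99, 96.3 and 96.3 with empty vector and 101, 78.3 and 105.7 with overexpression, and limma-trend gave -0.03 on the log2(TPM + 1) scale (adjusted p = 0.904). The second overexpression replicate was the lowest of all in TPM but above every empty vector library in CPM (153 against at most 147). Its count per TPM was 0.28 above the mean of the 6 libraries on the log2 scale, while the other 5 lay between -0.14 and 0.0171. The SD of this quantity for SLC4A2 was larger than for 89.6% of the 10545 genes that reached 200 counts throughout, so the direction of SLC4A2 depends on the unit. SLC4A2 shares 331 of 7590 exonic bases with the opposite-strand gene CDK5, at 546 to 612 counts per library with a log2 fold change of 0.073 (edgeR adjusted p = 0.595).

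SLC4A7 (NBCn1; chromosome 3, 27372721 to 27484420, minus strand) had 35.5, 27.2 and 30.6 CPM with empty vector and 23.7, 27.1 and 24.6 CPM with overexpression. The groups barely lay apart, since the second replicates of both groups differed by less than 0.1 CPM. The log2 fold change was -0.31 (SE 0.106, edgeR adjusted p = 0.135), and it was -0.20 without empty vector replicate 1, the highest library, and -0.40 without empty vector replicate 2. In counts, the ratio of SLC4A2 to SLC4A7 was 3.98, 5.42 and 4.65 with empty vector and 7.07, 5.66 and 6.73 with overexpression (exact permutation p = 0.1, 2-sided, and 0.133 adjusted over 4 ratios). In TPM the ratio of the groups overlapped, and the exact permutation p was 0.3.

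**Figure D4:**
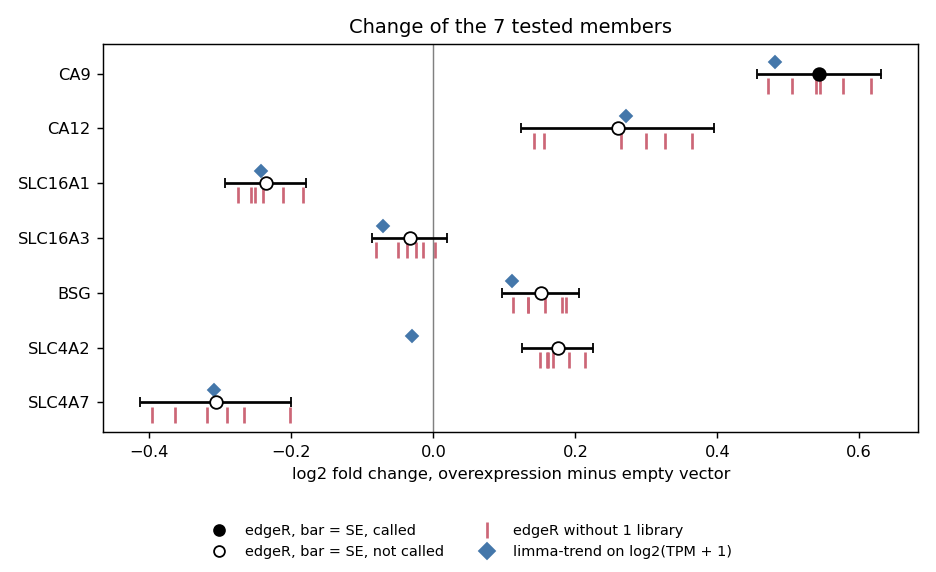
Log2 fold change of the 7 tested genes, overexpression minus empty vector, with circles for edgeR on counts (bar, SE; filled where called), red ticks for edgeR without 1 library and blue diamonds for limma-trend on log2(TPM + 1). CA9 is the only filled circle, at 0.54, and SLC4A2 is the gene whose TPM value, -0.03, lies on the other side of 0 from its edgeR value, 0.18.

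The rest of the machinery was read from fixed lists, which were also chosen with earlier results of these data known. Their shares of called genes are therefore descriptions only. Of 124 genes in 8 lists of acid and bicarbonate transport and of the HIF pathway, 86 were tested, and edgeR called 5 higher and 6 lower, 12.8% against 5.6% of all genes, with a median log2 fold change of 0.0075. Of the 11 other carbonic anhydrase genes, 3 were tested and 6 had 0 counts in every library. CA5B, which encodes a mitochondrial anhydrase, rose from 164 ± 14.2 CPM to 200.4 ± 5.75 CPM (SD, n = 3 each; log2 fold change 0.29, edgeR adjusted p = 0.0448), at 61.1 TPM a higher level than CA9. The call of CA5B held without empty vector replicate 1 and was lost without empty vector replicate 2 or 3 or without any 1 overexpression replicate (adjusted p of 0.073 to 0.130). CA11, an anhydrase-related protein without activity, had 37.1 ± 0.828 and 39.7 ± 2.70 CPM (edgeR adjusted p = 0.429).

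Among 20 genes of other monocarboxylate transporters and lactate enzymes, 13 were tested and 0 were called by edgeR, DESeq2, limma-voom or limma-trend on TPM, and 0 had an unadjusted edgeR p under 0.05. The lactate dehydrogenase genes were abundant, with LDHB at 922 ± 72.4 and 1009 ± 126 CPM and LDHA at 680.2 ± 151 and 772 ± 118 CPM. SLC16A6 had 209 ± 7.84 and 209.6 ± 11.2 CPM. EMB, whose product embigin is the alternative partner of these transporters, had 0 counts in all 6 libraries. Other bicarbonate and anion exchanger genes had 7 of 16 tested and 0 called by edgeR, with 3 at an unadjusted p under 0.05, 1 called by DESeq2 and 0 by limma-voom, and a median of -0.26. SLC26A2, a sulfate transporter gene, had 44.3 ± 2.74 and 37.0 ± 0.771 CPM (log2 fold change -0.26, edgeR adjusted p = 0.0619).

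Genes of sodium-proton exchange had 10 of 15 tested and 1 called. NHERF1, which encodes a scaffold of these exchangers, rose from 121 ± 3.54 CPM to 138 ± 2.34 CPM (log2 fold change 0.19, edgeR adjusted p = 0.0471), and its call was lost in each of the 6 fits without 1 library (adjusted p of 0.0697 to 0.161). Of 25 genes of proton pumps and channels, 21 were tested and 1 was called. ATP6V0A2, a membrane subunit gene of the vacuolar proton pump, fell from 30.2 ± 0.948 CPM to 23.7 ± 0.120 CPM (log2 fold change -0.35, edgeR adjusted p = 0.0208). That call was lost without empty vector replicate 3 or without any 1 overexpression replicate (adjusted p of 0.0543 to 0.0829). The pump subunit genes ATP6V1F and ATP6V1G1 had log2 fold changes of -0.01 and -0.04. Proton-sensing receptor and channel genes had 6 of 10 tested and 0 called by edgeR, DESeq2, limma-voom or limma-trend on TPM, and 0 had an unadjusted edgeR p under 0.05.

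In the list of oxygen-sensing machinery upstream of CA9, 10 genes were tested. Calls numbered 1 higher and 3 lower, where 5.6% of all genes tested were called. As the list was chosen with earlier results known, this share is a description only. At an unadjusted edgeR p under 0.05 there were 6, where 23.6% of all genes tested passed. HIF1A, which encodes the alpha subunit of HIF-1, fell from 208.5 ± 17.5 CPM to 165.5 ± 6.99 CPM (log2 fold change -0.33, edgeR adjusted p = 0.0323). EPAS1, the gene of HIF-2 alpha, fell from 298 ± 8.68 CPM to 236.5 ± 2.45 CPM (log2 fold change -0.33, edgeR adjusted p = 0.00779). VHL, whose product marks the HIF alpha subunits for degradation, fell from 128 ± 2.97 CPM to 105 ± 2.51 CPM (edgeR adjusted p = 0.0147). EGLN1, the gene of the prolyl hydroxylase that starts this degradation and itself a HIF target, rose from 112.5 ± 5.65 CPM to 152 ± 3.92 CPM (log2 fold change 0.44, edgeR adjusted p = 0.00656). HIF activity depends mainly on the stability of the alpha subunits, which RNA does not measure. The calls of EPAS1 and EGLN1 held in all 6 fits without 1 library. That of HIF1A was lost without empty vector replicate 2 or without any 1 overexpression replicate (adjusted p of 0.0617 to 0.113), and that of VHL without overexpression replicate 2 or 3 (0.059 and 0.0614).

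HIF-induced genes outside glycolysis did not move 1 way with CA9. Of 16 tested, 2 rose and 2 fell, with a median log2 fold change of 0.11 and 10 above 0. These calls are 25% of the list, against 5.6% of all genes tested, and this list too was chosen with earlier results known. At an unadjusted edgeR p under 0.05 there were 8, where 23.6% of all genes tested passed. BNIP3, a mitophagy receptor gene, rose from 108 ± 2.58 CPM to 139 ± 5.77 CPM (edgeR adjusted p = 0.00991). NDRG1 rose from 419.7 ± 26.4 CPM to 531 ± 40.6 CPM (edgeR adjusted p = 0.033), a call lost in each of the 6 fits without 1 library (0.0518 to 0.0869). STC2, a stanniocalcin gene that the integrated stress response also induces, fell from 127 ± 2.75 CPM to 86.5 ± 3.03 CPM (edgeR adjusted p = 0.00258). ANGPTL4, a lipase inhibitor gene, fell from 52.9 ± 3.73 CPM to 39.4 ± 1.32 CPM (edgeR adjusted p = 0.0163), and its call was lost without overexpression replicate 1 or 3 (0.0645 and 0.0686). The uncalled genes with the highest TPM were DDIT4, BNIP3L and VEGFA. DDIT4 had 907 ± 89.6 and 868.6 ± 24.9 CPM (edgeR adjusted p = 0.642). BNIP3L had 164 ± 2.25 and 181 ± 7.42 CPM, with every overexpression library above every empty vector library (edgeR adjusted p = 0.112). VEGFA, the angiogenic factor gene, had 119 ± 7.32 and 82.0 ± 29.4 CPM (edgeR adjusted p = 0.306).

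**Figure D5:**
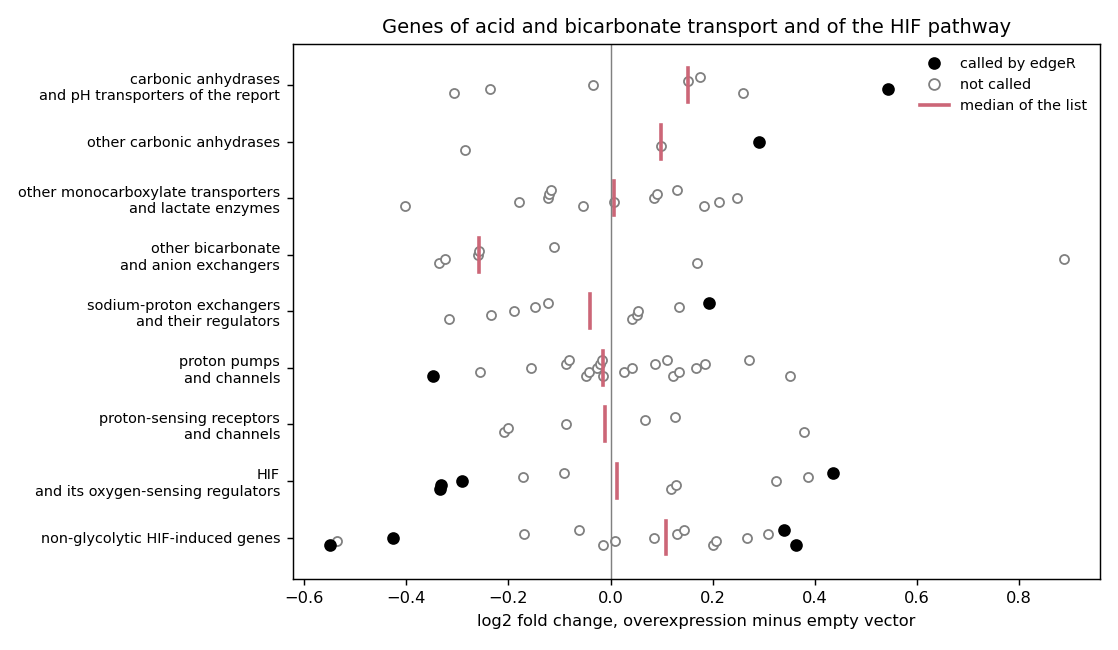
Log2 fold change, overexpression minus empty vector, of each tested gene of the 9 genes and of the 8 fixed lists of acid and bicarbonate transport and HIF, with filled points for genes called by edgeR and a red line at each median. CA9, at 0.54, is the called gene farthest to the right, and the HIF lists hold called genes on both sides of 0.

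The genes whose profile over the 6 libraries lay nearest to that of CA9 were found by the root mean square difference of log2 CPM, each gene centred on its own mean, among 12064 tested genes whose mean log2 CPM reached 1. They were THEM5 (0.0415), CAVIN2 (0.0598), ETNPPL (0.0603), MYO7B (0.0637) and COL16A1 (0.0651), against a median of 0.301 over the genes compared. These 5 genes had low levels, 67 to 322 counts per library. Only THEM5 and COL16A1 passed the edgeR test (adjusted p = 0.048 and 0.047), and THEM5, a thioesterase gene, went from 2.06 ± 0.121 to 3.26 ± 0.390 CPM. As a selection for likeness to CA9, their common direction is not a result.

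Markers of other cell types were read beside the rise of CA9. Of 8 fibroblast markers, 3 (LUM, PDGFRA and FAP) were at 0 in all libraries. Among the 4 tested, all had a positive log2 fold change and 2 were called higher, against 3.57% of all genes tested. The summed level of the 8 was 112 to 122 CPM with empty vector and 154 to 159 CPM with overexpression. COL1A1 made up most of that sum, at 82.4 ± 3.64 and 114 ± 1.45 CPM (edgeR adjusted p = 0.00452). PDGFRB, at 29.7 ± 1.75 and 36.8 ± 1.67 CPM (edgeR adjusted p = 0.0471), lost its call in each of the 6 fits without 1 library (0.0796 to 0.141). COL3A1, at only 6 to 53 counts per library, had a log2 fold change of 1.73 and was not called (edgeR adjusted p = 0.0562). Of 8 immune markers, PTPRC, CD3E, LYZ and NKG7 were at 0 and the summed level was 34.8 to 36.5 and 22.2 to 26.3 CPM. CD68, which epithelial lines also express, made up nearly all of it and fell from 33.3 ± 0.906 CPM to 21.2 ± 1.96 CPM (edgeR adjusted p = 0.00722). Of 8 erythroid markers, relevant because red cells carry CA2, 4 were tested, 0 were called by edgeR, DESeq2 or limma-voom, 0 had an unadjusted edgeR p under 0.05, and the sum was 4.30 to 4.83 and 4.83 to 5.24 CPM. Of 6 endothelial markers, KDR was at 0, 0 were called, and the sum was 131 to 135 and 122 to 131 CPM. ENG made up most of that sum, at 124 ± 1.89 and 118 ± 4.34 CPM (edgeR adjusted p = 0.365). The luminal marker KRT8 rose from 1363 ± 62.1 CPM to 1669.8 ± 46.2 CPM (edgeR adjusted p = 0.0187), a call lost in 4 of the 6 fits without 1 library, those without empty vector replicate 2 or any 1 overexpression replicate (0.0625 to 0.0787). The part of these markers in the change of CA9 was not tested.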

How the data were processed

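RNA sequencing measured gene expression in 6 libraries, 3 per group. Per the submitters' processing notes, the authors used Trimmomatic 0.36, HISAT2, featureCounts, Subread 1.5.1 and DESeq with build GRCh38. Not given in the sources used here are the annotation release, the strand setting and the tool behind the TPM. The deposited counts were whole numbers with no normalization. The deposited TPM, 1 value per gene and library, served for levels between genes and in alternative fits.

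Row identifiers were matched to symbols for 20148 of 20263 genes, and positions came from GENCODE release 29 (GRCh38). In R 4.3.3, edgeR 4.0.16 kept genes by filterByExpr (minimum count 10, minimum total 15), scaled by TMM and fitted a robust quasi-likelihood model with group as its only term to all genes. P-values were Benjamini-Hochberg adjusted over the 13543 genes tested and called under 0.05. The SE was the size of the log2 fold change over the square root of F. CPM are TMM-scaled. The members and lists were chosen with earlier results of these data known. Named list genes were up to 4 called genes with the smallest adjusted p and up to 3 uncalled genes with the highest TPM, or any tested gene of a list of at most 11. Profiles were compared on log2(CPM + 0.5).

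The model did not pair same-numbered libraries, as no label names a shared culture. Alternatives were other scalings, count filters, DESeq2 1.42.0, limma 3.58.1 on counts (voom) and on log2(TPM + 1) or log2(TPM + 0.1), each library left out, and a replicate block. The edgeR fit with TMM, DESeq2 and voom were run on simulated counts with 3 libraries per group, and the other alternatives were not. Some genes of the lists are not reported here.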

Additional observations from a re-analysis of the deposited data

How the results depend on the processing

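Each alternative was compared with the main edgeR fit. Against 759 genes called by edgeR, DESeq2 called 1316, and limma-trend called 219 on log2(TPM + 1), 225 on log2(TPM + 0.1) and 152 on log2(TPM + 1) with no filter. Fits without 1 library called 193 to 458. With library size as the only scaling, 346 were higher and 382 lower, against 484 and 275 with TMM. Of the 9 genes, 1 was called, against 2 (CA9 and SLC16A1) with library size only, with no count filter and with DESeq2, 0 in the 3 fits on TPM, and 0 to 1 without 1 library.

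The log2 fold change of CA9 was 0.48 (adjusted p = 0.053), 0.49 (0.0511) and 0.48 (0.0685) in the 3 fits on TPM, and 0.47 to 0.62 without 1 library, where 3 of 6 fits kept the call. That of SLC16A1 passed at -0.27 with library size only, -0.24 with no count filter and -0.23 with DESeq2. SLC4A2 changed sign on TPM (-0.030 on log2(TPM + 1), with and without the filter, and -0.030 on log2(TPM + 0.1)), and SLC16A3, at -0.080 to 0.0021 without 1 library, did so without empty vector replicate 3. The cause was not tested. CA12, SLC4A7 and BSG kept their direction and stayed uncalled in all 17 alternatives. In the 8 lists together, 11 genes were called, against 5, 5 and 2 in the fits on TPM and 4 to 9 without 1 library.

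Deviations of same-numbered libraries from their group means correlated at 0.0367, 0.0547 and 0.0449, below 0.1. Pairs of unlike number gave -0.0645 to 0.0189, so each library correlated best with its own number. Whether the numbers pair the samples cannot be told from values this small. With a replicate block, edgeR called 232 genes, 1 of the 9 (CA9, log2 fold change 0.54, adjusted p = 0.045) and 5 genes of the lists. Depth limits CA2 and CA13, which lay at or near the floor of 3 counts.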
